A study of Mus musculus with 18 samples.

Results

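The constitutive proteasome subunits and their activators were examined in RNA-seq data from Il10-/- mouse bone marrow-derived macrophages. The members were chosen by symbol alone. Every gene named Psma, Psmb, Psmc, Psmd or Psme followed by a number was taken, which gave 43 genes, and the immunoproteasome subunits Psmb8, Psmb9 and Psmb10 were left out. This left 40 of the 24485 genes listed for each library: 8 of the alpha ring (Psma1 to Psma8), 8 of the beta ring (Psmb1 to Psmb7 and Psmb11), 6 ATPases of the base (Psmc1 to Psmc6), 3 other base subunits (Psmd1, Psmd2, Psmd4), 8 lid subunits, 3 assembly chaperones of the base (Psmd5, Psmd9, Psmd10) and 4 activators (Psme1 to Psme4). The 18 libraries formed 6 groups of 3, and the replicate number in the title was taken as the mouse of origin. All cells carried the Il10 deletion on the C57BL/6J background, so no group made its own functional IL-10, and no wild-type cells entered these comparisons. The mice were 12-week-old males. Marrow cells were grown into macrophages with L929-conditioned medium and were then left unstimulated, or were kept for 12 hours with 500 nM (+)-JQ1 (JQ1), a small molecule that blocks the acetyl-lysine binding of BET proteins, or with 10 ng/mL recombinant IL-10. Lipopolysaccharide (LPS) at 50 ng/mL was added for 4 hours to cells left without either agent, to JQ1-treated cells and to IL-10-treated cells, giving the groups LPS, LPS + JQ1 and LPS + IL-10. Control cells of the LPS group received vehicle according to the study's methods, while the labels call them untreated. Those methods call the unstimulated cells untreated and name no vehicle for them. A part of the vehicle in the comparisons with unstimulated cells was not tested.

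The proteasome is the main protease for ubiquitin-tagged proteins in the cytosol and nucleus. Its 20S core is a barrel of outer alpha rings, which gate the entrance, and inner beta rings, in which Psmb5, Psmb6 and Psmb7 carry the active sites. The 19S cap adds a base of ATPases that unfold the substrate and a lid that removes ubiquitin, and the caps PA28 (Psme1 and Psme2, or Psme3) and PA200 (Psme4) can bind the core in its place. In macrophages the core is best known for making peptides for MHC class I presentation, for which Psmb8, Psmb9 and Psmb10 can replace the constitutive active subunits.

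Total expected counts per library ran from 6781952 to 28289498, so that a floor of 3 counts corresponded to between 0.106 and 0.442 CPM. All 8 macrophage markers were present, among them Csf1r at 576 to 1791 TPM (a level per transcript length, scaled to the library), while 5 of 20 markers of other cell types passed 1 TPM in any library (Cd4, S100a8, Zbtb46, Col1a1 and Col1a2), and the neutrophil marker Ly6g was listed at 0 in all of them. The summed TPM of 4 neutrophil markers, nearly all of it S100a8 (2.91 to 37.6), was 7.78 to 33.2 in unstimulated cells, 2.91 to 5.84 after JQ1, 8.64 to 17.66 after IL-10, 15.3 to 23.6 after LPS, 3.72 to 8.85 under LPS + JQ1 and 13.96 to 37.6 under LPS + IL-10, and its part in the results was not tested. The summed TPM of the macrophage markers moved with the treatments, from 22971 to 24769 in unstimulated cells to 14317 to 15764 with LPS and 19578 to 22564 under LPS + JQ1, and its part in the results was not tested. The ribosomal precursor Rn45s took 9.11 to 12.5% of the counts without LPS and 5.54 to 7.92% with LPS, and this too was not tested. In bulk RNA, fewer cells expressing a gene and less of its RNA per cell cannot be told apart. Il10 itself was still counted in every library (27.1 to 177 normalised counts), as reads from the remaining part of a disrupted gene can be.

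The 5 promoters shown belong to the members whose values carry the comparisons below: the activator genes Psme2 and Psme1, the alpha subunit Psma6, the catalytic subunit Psmb6 and the assembly chaperone Psmd5. Each is the 250 bases before the gene's most upstream annotated start close to that of its main transcript (mm9, GENCODE vM1). They are written 5′ to 3′ on the gene's own strand, and none of these bases is exonic in that annotation. The windows are chr14:56209951-56210200 for Psme2 on the minus strand, chr14:56196710-56196959 for Psme1 on the plus strand, chr12:56499512-56499761 for Psma6 on the plus strand, chr11:70338619-70338868 for Psmb6 on the plus strand and chr2:34726460-34726709 for Psmd5 on the minus strand. The Psma6 window lies within the annotated span of the gene, which begins further upstream, and is intronic there. Capitals mark a match to one of 5 short motifs searched on both strands.
Psme2: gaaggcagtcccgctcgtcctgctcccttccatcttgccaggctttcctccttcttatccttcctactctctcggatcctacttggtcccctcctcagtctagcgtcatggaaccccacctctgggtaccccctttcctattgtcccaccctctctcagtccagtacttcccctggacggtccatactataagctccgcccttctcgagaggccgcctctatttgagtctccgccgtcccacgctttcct
Psme1: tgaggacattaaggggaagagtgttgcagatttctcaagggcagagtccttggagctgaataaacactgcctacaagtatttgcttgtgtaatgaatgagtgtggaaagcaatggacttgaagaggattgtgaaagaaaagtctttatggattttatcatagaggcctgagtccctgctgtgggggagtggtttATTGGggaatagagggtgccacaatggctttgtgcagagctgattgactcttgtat
Psma6: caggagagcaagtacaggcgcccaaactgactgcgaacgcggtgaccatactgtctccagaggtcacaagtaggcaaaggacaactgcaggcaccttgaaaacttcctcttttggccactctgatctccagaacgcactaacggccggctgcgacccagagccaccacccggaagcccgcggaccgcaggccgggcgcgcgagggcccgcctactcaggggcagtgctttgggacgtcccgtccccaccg
Psmb6: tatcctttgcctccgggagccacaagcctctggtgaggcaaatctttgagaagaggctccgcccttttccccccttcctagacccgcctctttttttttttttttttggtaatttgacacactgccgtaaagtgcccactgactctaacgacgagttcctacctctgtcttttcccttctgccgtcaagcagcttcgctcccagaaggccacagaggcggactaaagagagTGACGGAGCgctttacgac
Psmd5: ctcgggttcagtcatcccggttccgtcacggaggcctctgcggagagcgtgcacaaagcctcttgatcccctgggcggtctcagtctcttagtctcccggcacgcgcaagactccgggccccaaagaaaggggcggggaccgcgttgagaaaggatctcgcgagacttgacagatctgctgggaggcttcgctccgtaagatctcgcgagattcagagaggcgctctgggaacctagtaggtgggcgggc
Psme1 and Psme2 are neighbours on chromosome 14, at 56196960-56200366 and 56206278-56209950 on opposite strands. Only 1 motif was matched in each of the Psme1 and Psmb6 windows and none in the other 3. In Psme1 the letters ATTGG, which read CCAAT on the other strand, stood at positions -56 to -52 from the start. In Psmb6 the letters TGACGGAGC, a match to TGACNNNGC, the core of the antioxidant response element, stood at -19 to -11. Over all 40 members, TGACNNNGC was found in 6 windows (15%: Psmb5, Psmb6, Psmc6, Psmd7, Psmd9 and Psmd12), against 9.98% of the windows of 22380 protein-coding genes. CCAAT was found in 18 members (45%, against 35.1%). The core of the interferon-stimulated response element (a pair of GAAA runs with any 2 bases between them) was found in 5 (12.5%, against 3.42%). TGACGTCA, the cyclic AMP response element, was found in 1 (2.5%, Psmb2, against 1.92%). For kB, only 1 fixed sequence without variable bases was searched, and it was found in 0 members (against 0.121%). Looser kB-type matches were not searched for, so their presence in any member, Psma6 included, was not tested. The 5 members with the interferon-type match were Psma4, Psmb3, Psmd4, Psmd7 and Psmd9, none of which was among the 3 members that moved most with LPS. The members' windows had a median GC content of 55.2%, beside 54.4% for all genes. A match is a description of these letters and not of binding.

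Of the 40 members, 38 were well expressed, and Psma8 and Psmb11 were not. Psma8, an alpha subunit known from testis, had 17, 2 and 4 counts in the unstimulated libraries and 0 to 16 counts in the other 15 libraries. Psmb11, the active subunit of the thymus proteasome, had 0 counts in 15 libraries and 1 count in the other 3, which is below the floor of 3 counts per library. In unstimulated cells the other 38 members spanned 16.6-fold in mean TPM, from Psmd9 at 13.8 to Psmb6 at 229, with a median of 84.6. With LPS the span was 139-fold, from Psmd9 at 7.61 to Psme2 at 1058 TPM. The summed TPM of all members was 3516 ± 203 (SD, n = 3) in unstimulated cells, 3105 ± 124 after JQ1, 3490 ± 140 after IL-10, 5530 ± 302 after LPS, 4874 ± 214 under LPS + JQ1 and 5789 ± 385 under LPS + IL-10. The LPS groups did not overlap with the groups without LPS in this sum, nor did LPS and LPS + JQ1, whose libraries lay at 5260 to 5856 and at 4635 to 5047. The sum is weighted to the most abundant members and does not describe the typical one. The median TPM of the 38 was 84.6 in unstimulated cells, 87.2 with LPS and 96.1 under LPS + JQ1. From LPS to LPS + JQ1, mean TPM went from 1058 to 718 for Psme2, from 536 to 285 for Psme1 and from 494 to 296 for Psma6. The values of 38 members in every library are shown relative to the unstimulated mean.

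**Figure D1:**
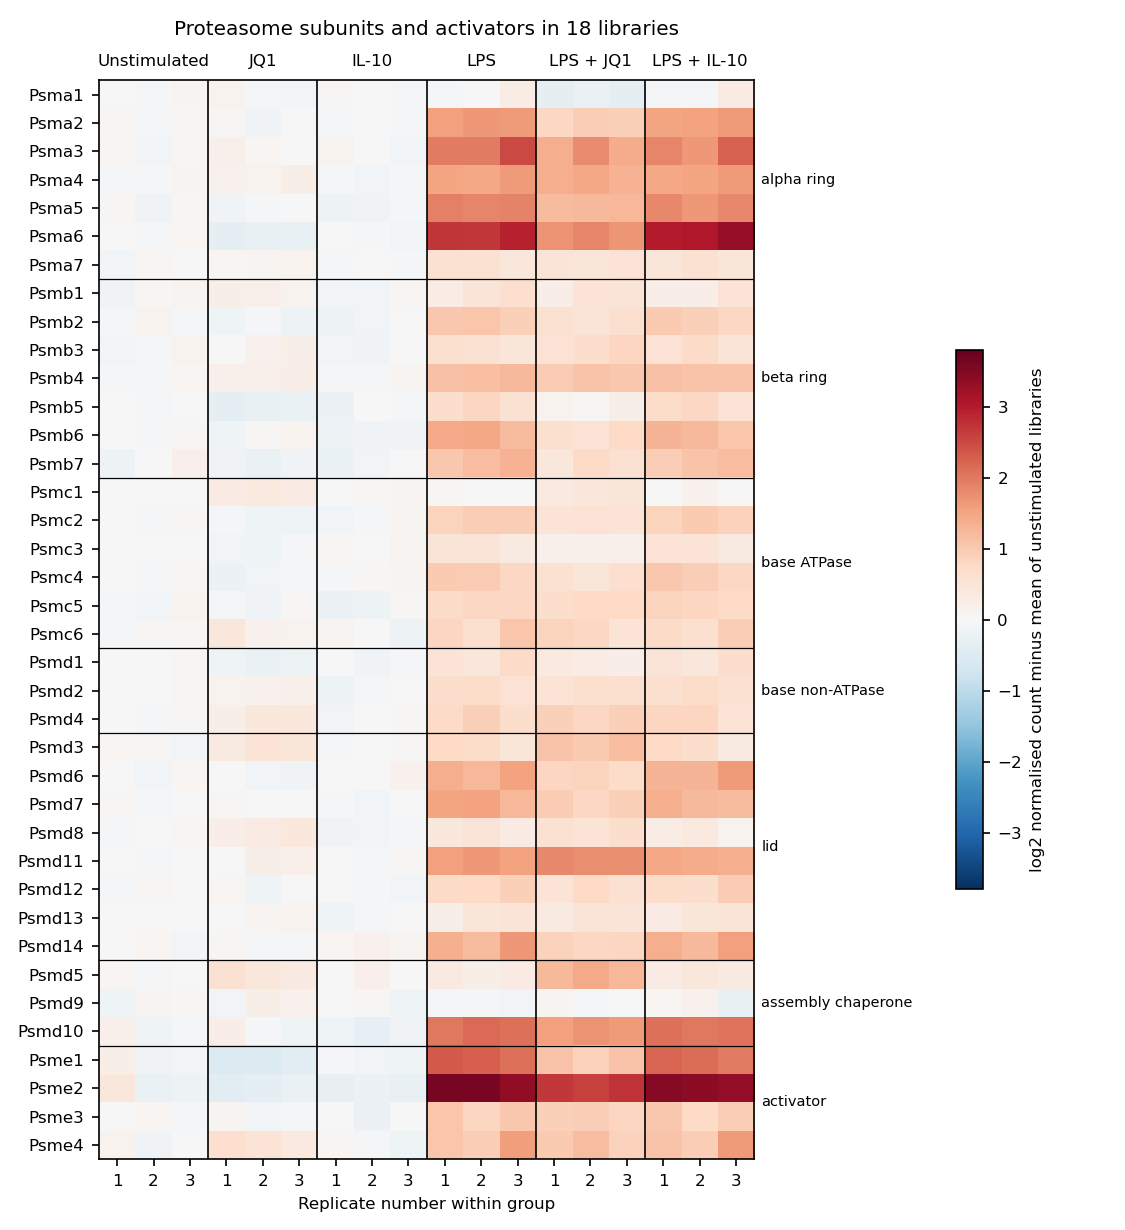
Heat map of 38 members (rows, grouped by role) in 18 libraries (columns, 3 replicates per group). Colour is the log2 normalised count (counts divided by DESeq2 size factors) minus the mean of the 3 unstimulated libraries. Psme2, Psma6, Psme1 and Psma3 are the darkest rows with LPS, and Psma1, Psmc1 and Psmd9 stay pale. With total-count scaling in place of the one plotted, 14 members are called lower with LPS and 14 higher. Of all 14966 genes tested, 8847 are then lower and 2219 higher.

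LPS was compared with no stimulation to see which proteasome genes respond to a bacterial signal. With 4 hours of LPS, 35 of 40 members passed the test as higher and 0 as lower (DESeq2, adjusted p under 0.05 over all genes), where 30.8% of all genes tested passed as higher and 32.2% as lower. The members' median log2 fold change was 0.91, beside -0.06 for all genes tested. How many members rose depended on the scaling of the libraries. Scaling to the total count gave 14 higher and 14 lower members with a median of -0.024, and log2(TPM + 1) values tested with limma gave 17 higher and 10 lower with a median of 0.13. The median of all genes moved with it, to -1.01 and -0.69, so that the members' median stayed above that of all genes by 0.97 with the main scaling, 0.98 with TMM factors, 0.98 with total counts and 0.82 with TPM. Between 36 and 38 of the 38 expressed members lay above the all-gene median in each of these scalings. Of all genes tested, 2219 of 14966 were higher and 8847 lower with total counts, and 2310 of 11436 and 7641 with TPM. Passed as higher under all 4 scalings were 14 members: Psma2, Psma3, Psma4, Psma5, Psma6, Psmb4, Psmb6, Psmd6, Psmd7, Psmd10, Psmd11, Psmd14, Psme1 and Psme2. The other 21 calls were each lost, or turned, under at least 1 of the 3 other scalings.

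The activators gave the largest change of any member. Psme2 (PA28 beta) had 1099, 673 and 712 normalised counts in unstimulated replicates 1 to 3 and 9934, 9742 and 8413 with LPS. With JQ1 alone it had 605, 622 and 680, with IL-10 alone 651, 688 and 660, under LPS + JQ1 5158, 4877 and 5429, and under LPS + IL-10 8933, 8570 and 8219. The 9 LPS libraries were all above the 9 others, unstimulated replicate 1 stood above its group, and the 3 LPS + JQ1 libraries lay between the other LPS libraries and the resting ones. LPS raised Psme2 11.3-fold (log2 3.49 ± 0.13 SE, DESeq2 adjusted p = 3.8e-151). The rise of Psme2 was smaller at log2 2.56 with total-count scaling and 2.74 with TPM. Its counts were fractional in all 18 libraries, because RSEM shares reads between Psme2 and its near-copy Psme2b, which took 10.1 to 26.9% of the summed counts of the pair. The Psme2b part was 23.1 to 26.9% in unstimulated cells, 15.9 to 16.8% with LPS and 10.1 to 11.6% under LPS + JQ1. The summed pair had 1428, 917 and 974 normalised counts in unstimulated cells, 11816, 11605 and 10108 with LPS and 5834, 5461 and 6037 under LPS + JQ1. The effect of this sharing on the Psme2 fold changes was not tested.

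Psme1 (PA28 alpha) followed the same order of groups. It had 1318, 1020 and 1056 normalised counts in unstimulated cells, 5671, 5412 and 4765 with LPS and 2391, 2063 and 2395 under LPS + JQ1. Values with JQ1 alone were 789, 785 and 857, with IL-10 alone 1090, 1040 and 1000, and under LPS + IL-10 5245, 4855 and 4453. No LPS + JQ1 library reached an LPS library, and no JQ1 library reached an unstimulated one. LPS raised Psme1 4.66-fold (log2 2.22 ± 0.10, DESeq2 adjusted p = 1.77e-102). The rise was smaller at log2 1.29 with total-count scaling and 1.44 with TPM. In mean TPM, the PA28 pair went from 198 ± 33.0 and 162 ± 49.5 (Psme1 and Psme2, SD, n = 3) to 536 ± 10.2 and 1058 ± 24.6.

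The other activators moved less. Psme3, which forms the nuclear PA28 gamma cap, had 717, 753 and 695 normalised counts in unstimulated cells, 1496, 1272 and 1470 with LPS and 1359, 1375 and 1264 under LPS + JQ1, against 779, 671 and 702 with JQ1 alone, 720, 623 and 711 with IL-10 alone and 1457, 1219 and 1388 under LPS + IL-10. Its rise with LPS (log2 0.97 ± 0.09, adjusted p = 3.3e-25) was no longer called with total-count scaling (0.04) or TPM (0.18). Psme4, the PA200 cap, had 1202, 1005 and 1100 in unstimulated cells, 1698, 1568 and 1420 after JQ1, 1161, 1063 and 979 with IL-10, 2281, 2097 and 3297 with LPS, 2212, 2458 and 2016 under LPS + JQ1 and 2306, 2099 and 3362 under LPS + IL-10. Replicate 3 stood above the other replicates with LPS and under LPS + IL-10 and not under LPS + JQ1. Psme4 rose with LPS (log2 1.21 ± 0.17, adjusted p = 5.53e-12), and total-count scaling (0.29) and TPM (0.40) left it uncalled.

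**Figure D2:**
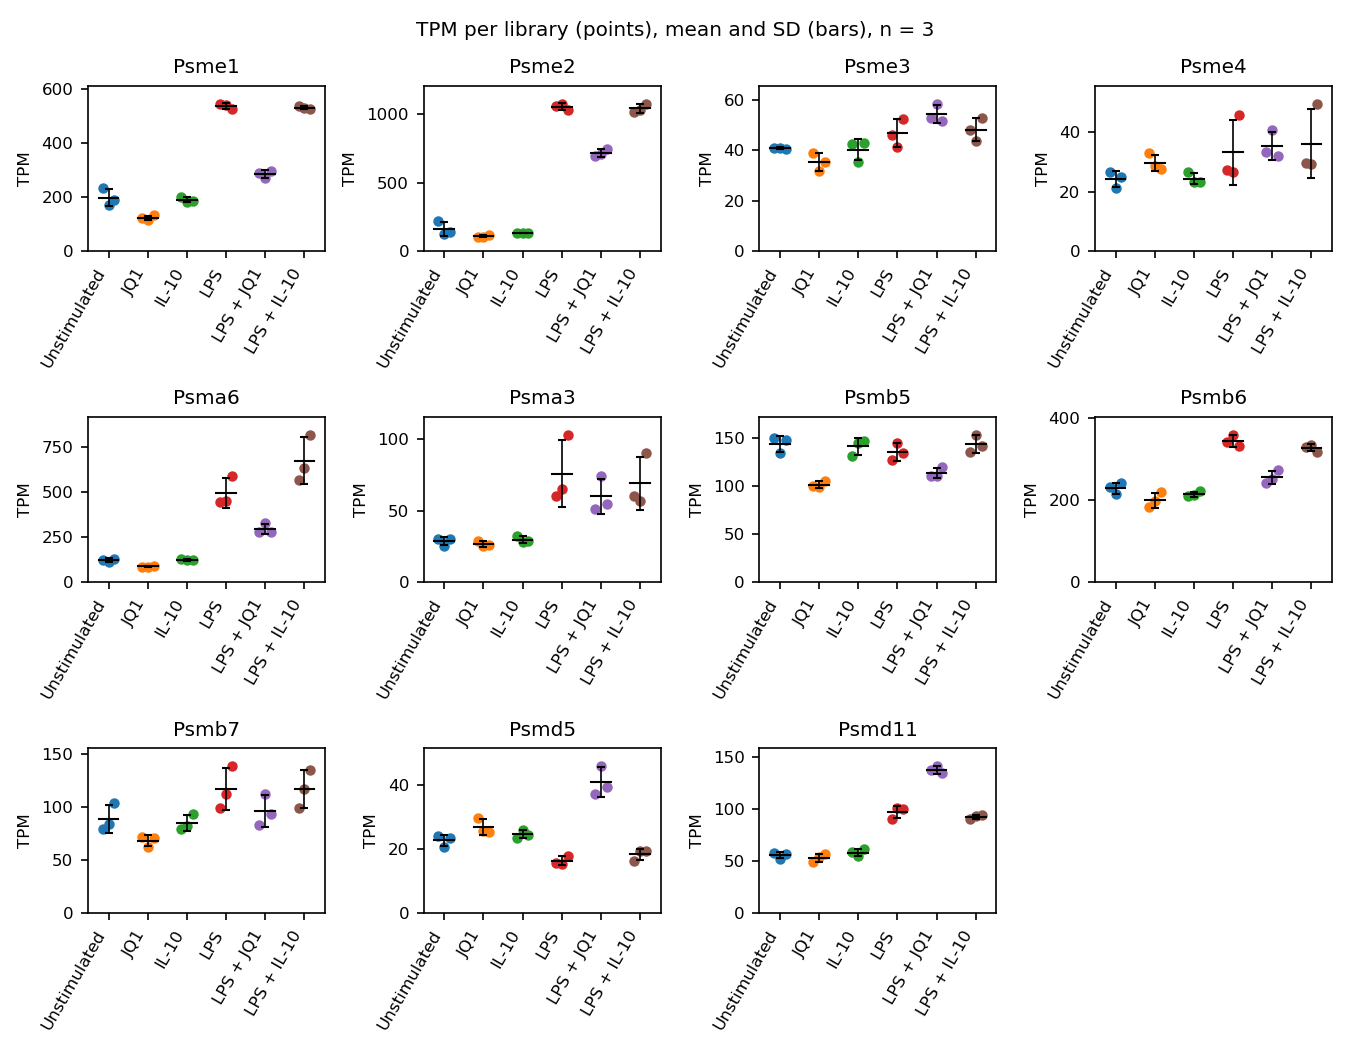
TPM (vertical axes, from 0) of 11 members in each library, with 3 points per group and a bar for the mean ± SD (n = 3). Psme2 reaches 1030 to 1080 TPM with LPS and 696 to 749 under LPS + JQ1, while Psmd5 is lowest with LPS (15.3 to 17.8) and highest under LPS + JQ1 (37.0 to 45.9).

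Within the alpha ring, which opens and closes the entrance to the core, LPS raised 6 of 8 genes, with a median log2 fold change of 1.60 over the 7 expressed ones. With total-count scaling and with TPM 5 were higher and 2 lower, with medians of 0.67 and 0.82. The range was wide, from 0.080 for Psma1, called lower with total-count scaling (-0.85) and TPM (-0.69), to 2.78 for Psma6. Psma6 had 720, 687 and 752 normalised counts in unstimulated cells and 4739, 4632 and 5502 with LPS. It had 570, 596 and 591 with JQ1, 705, 701 and 667 with IL-10, 2356, 2586 and 2319 under LPS + JQ1 and 5680, 5954 and 7126 under LPS + IL-10. In these counts every LPS + IL-10 library was above every LPS library, and every LPS + JQ1 library was below them. In TPM the LPS + IL-10 libraries (567 to 817) overlapped with the LPS libraries (443 to 590). The rise with LPS was 6.87-fold (log2 2.78 ± 0.09, DESeq2 adjusted p = 6.31e-194), and log2 1.85 with total-count scaling and 1.99 with TPM. Psma3 had 477, 423 and 467 counts in unstimulated cells, 523, 477 and 463 after JQ1, 498, 451 and 425 with IL-10, 1750, 1799 and 2608 with LPS, 1183, 1569 and 1216 under LPS + JQ1 and 1640, 1429 and 2142 under LPS + IL-10. Replicate 3 was again the highest with LPS and under LPS + IL-10. Psma3 rose 4.49-fold with LPS (log2 2.17 ± 0.16, DESeq2 adjusted p = 1.25e-38), and the estimate lay between 1.96 and 2.27 when single libraries were left out. With total-count scaling it was 1.24 and with TPM 1.34.

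Because each alpha subunit enters the ring in equal number, the share of each mRNA in the summed TPM of the 7 expressed alpha genes was also computed. Psma6 was 17.5% ± 0.262 (SD, n = 3) of this sum in unstimulated cells, 37.7% ± 1.43 with LPS, 28.3% ± 0.830 under LPS + JQ1 and 44.3% ± 1.68 under LPS + IL-10. Psma1 fell in share from 12.6% ± 0.401 to 4.18% ± 0.307 with LPS and Psma7 from 24.1% ± 2.00 to 10.9% ± 1.17, without overlap between the libraries of these groups. The scaling of a library cancels in such a share. In the beta ring the shares moved less, with Psmb6 at 23.1% ± 0.593 in unstimulated cells, 29.9% ± 2.14 with LPS and 22.2 to 24.3% under LPS + JQ1. No test was run on the shares.

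**Figure D3:**
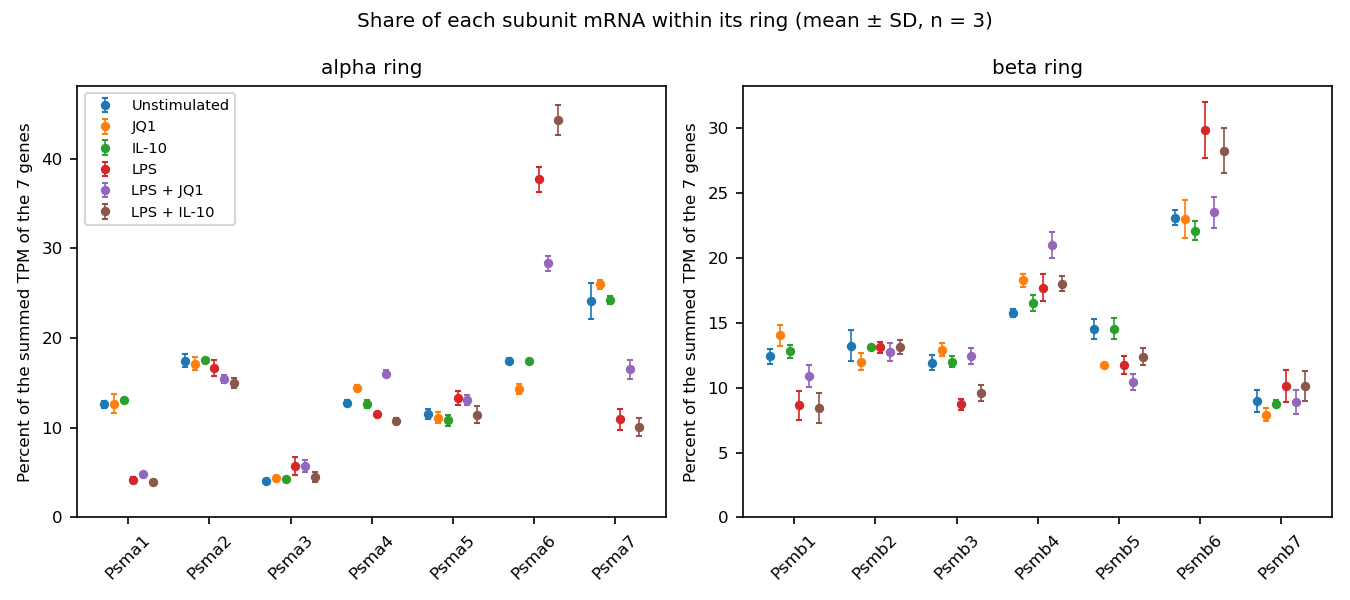
Percent of the summed TPM of 7 alpha genes (left) and 7 beta genes (right) taken by each gene, as mean ± SD of 3 libraries per group. Psma6 goes from 17.5% in unstimulated cells to 37.7% with LPS and 44.3% under LPS + IL-10, and no beta gene shifts by as much.

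In the beta ring, LPS raised all 7 expressed genes relative to the typical gene, from log2 0.47 for Psmb1 to 1.37 for Psmb6, but only Psmb4 and Psmb6 under every scaling (2 higher and 3 lower with total counts, 4 and 2 with TPM). Psmb5, with the chymotrypsin-like site, had 727, 693 and 717 normalised counts in unstimulated cells, 1141, 1265 and 1056 with LPS and 786, 734 and 837 under LPS + JQ1, against 554, 581 and 595 with JQ1, 613, 713 and 687 with IL-10 and 1145, 1224 and 1040 under LPS + IL-10. Its rise of log2 0.69 ± 0.09 (adjusted p = 3.66e-14) turned to -0.23 with total-count scaling and to -0.087 with TPM. Psmb6, with the caspase-like site, had 1395, 1377 and 1453 in unstimulated cells, 3816, 3877 and 3241 with LPS and 2155, 2067 and 2363 under LPS + JQ1, against 1259, 1444 and 1529 with JQ1, 1219, 1296 and 1285 with IL-10 and 3467, 3288 and 2904 under LPS + IL-10. Its LPS + JQ1 libraries lay between the resting and the LPS libraries with no overlap. Psmb6 rose 2.59-fold with LPS (log2 1.37 ± 0.09, DESeq2 adjusted p = 5.24e-49), and by log2 0.44 with total-count scaling and 0.59 with TPM. Psmb7, with the trypsin-like site, had 441, 496 and 576 in unstimulated cells, 1029, 1122 and 1254 with LPS and 681, 855 and 751 under LPS + JQ1, against 456, 423 and 458 with JQ1, 424, 464 and 503 with IL-10 and 965, 1069 and 1141 under LPS + IL-10. It rose by log2 1.17 ± 0.12 (adjusted p = 1.16e-22), was 0.24 and uncalled with total-count scaling, and its last exon shares 6 bases with Nek6 on the other strand.

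The inducible partners were compared with these 3 genes within each library, with no test. Psmb8, Psmb9 and Psmb10, which replace Psmb5, Psmb6 and Psmb7 in the immunoproteasome, rose by log2 2.87, 3.06 and 3.02 with LPS and passed under all 4 scalings. With total-count scaling these rises were 1.94, 2.13 and 2.09. The ratio of Psmb8 to Psmb5 in TPM was 0.814 ± 0.147 (SD, n = 3) in unstimulated cells, 3.71 ± 0.146 with LPS and 2.81 ± 0.121 under LPS + JQ1. For Psmb10 to Psmb7 it was 1.03 ± 0.373, 3.68 ± 0.717 and 2.20 ± 0.306. For Psmb9 to Psmb6 it was 0.223 ± 0.0684, 0.728 ± 0.0237 and 0.750 ± 0.0491, and the LPS and LPS + JQ1 libraries overlapped in this last ratio alone.

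In the 19S base, 5 of 6 ATPase genes and all 3 other subunits passed as higher with LPS, with medians of log2 0.80 and 0.63, and none of the 9 under every scaling (medians of -0.13 and -0.29 with total counts, 0.02 and -0.14 with TPM). Psmc1 was the ATPase that was not called, at 0.020, and it was called lower with total-count scaling (-0.91) and TPM (-0.75). All 8 lid genes passed, from 0.40 for Psmd13 to 1.58 for Psmd11 (4 higher and 3 lower with total counts, 4 and 2 with TPM), and Psmd6, Psmd7, Psmd11 and Psmd14, the last a deubiquitinase, under all scalings. Psmd11 had 640, 614 and 628 normalised counts in unstimulated cells, 623, 732 and 724 after JQ1, 635, 614 and 649 with IL-10, 1862, 1980 and 1799 with LPS, 2244, 2133 and 2117 under LPS + JQ1 and 1747, 1668 and 1583 under LPS + IL-10. LPS raised it 2.99-fold (log2 1.58 ± 0.07, DESeq2 adjusted p = 2.13e-106), and its 3 LPS + JQ1 libraries were all above the 3 LPS libraries. Its rise with LPS was log2 0.65 with total-count scaling and 0.79 with TPM. Of the chaperones that help assemble the base, Psmd10 (gankyrin) rose by 2.07 from 188 ± 24.7 to 796 ± 40.9 normalised counts (SD, n = 3), and Psmd9 was at -0.07. Psmd5 had 319, 291 and 307 counts in unstimulated cells, 387, 359 and 382 with LPS and 723, 825 and 737 under LPS + JQ1, against 453, 413 and 386 with JQ1, 303, 350 and 307 with IL-10 and 376, 413 and 386 under LPS + IL-10. Its call with LPS (log2 0.29 ± 0.10, adjusted p = 0.00749) turned to a lower one of -0.64 with total-count scaling and of -0.46 with TPM, and was 0.21 and uncalled with TMM factors.

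LPS + JQ1 was compared with LPS to ask how BET inhibition changes the response. Of the members, 19 passed as lower and 5 as higher, where 32.9% of all genes tested passed as lower and 24.4% as higher. The members' median was -0.23, beside -0.11 for all genes. With TMM factors the split was 17 lower and 7 higher, with total-count scaling 7 lower and 16 higher, and with TPM 9 lower and 12 higher, the members' median then being -0.11, 0.15 and 0.084 and that of all genes 0.00, 0.25 and 0.17. Among all genes tested, total-count scaling gave 2994 lower and 5524 higher of 14646, and TPM 2935 and 4932 of 11436. TMM factors gave 4114 and 4123 of 14326. Lower under all 4 scalings were Psma2, Psma5, Psma6, Psmb6, Psmd7, Psme1 and Psme2. Higher under all 4 were Psmc1, Psmd3, Psmd5, Psmd8 and Psmd11.

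The 3 largest falls were in the PA28 pair and in Psma6. Psme1 fell 2.31-fold (log2 -1.21 ± 0.10, adjusted p = 7.98e-32), Psma6 fell 2.05-fold (-1.03 ± 0.09, adjusted p = 1.15e-29) and Psme2 fell 1.82-fold (-0.86 ± 0.13, adjusted p = 1.62e-10). With total-count scaling these were -0.83, -0.66 and -0.48, and with TPM -0.91, -0.73 and -0.56. Among the catalytic genes Psmb6 fell by log2 0.73 (-0.73 ± 0.09, adjusted p = 7.32e-15), Psmb5 was at -0.56 and Psmb7 at -0.57, and these last 2 lost the call with total-count scaling (-0.18 and -0.20), Psmb7 also with TPM (-0.27). Psma3 was at -0.63 ± 0.16 (adjusted p = 0.000238), between -0.78 and -0.42 when single libraries were left out, and uncalled with total-count scaling (-0.26) or TPM (-0.31). The PA200 gene Psme4 (-0.20 ± 0.17, adjusted p = 0.332) and Psme3 (-0.08 ± 0.09, adjusted p = 0.465) did not pass, although Psme3 was called higher with total-count scaling (0.30, adjusted p = 0.00313). Psmb4 (-0.14, adjusted p = 0.0514) passed as lower when the mouse was a block (adjusted p = 0.0437) and as higher with total-count scaling (0.24, adjusted p = 0.00145). This comparison and the one of LPS with no stimulation share the 3 LPS libraries.

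Of the 20 members of the 19S particle or its assembly, 5 were higher under LPS + JQ1 and 8 were lower (Psmc2, Psmc3, Psmc4, Psmd1, Psmd6, Psmd7, Psmd10 and Psmd14). Among all genes tested, 24.4% were higher and 32.9% lower. Of the 8, Psmd7 alone was lower under all 4 scalings, while the 5 were higher under all 4. Of the 5, all but Psmd11 were also called higher with JQ1 in resting cells. Psmd5 rose 2.03-fold (log2 1.02 ± 0.09, DESeq2 adjusted p = 3.44e-26), and its 3 LPS + JQ1 libraries were above all 15 others. It rose by log2 1.40 with total-count scaling and 1.27 with TPM. Psmd3, a lid subunit, went from 1524 ± 160 normalised counts with LPS to 2070 ± 138 (SD, n = 3; log2 0.44). Psmc1 went from 963 ± 17.1 to 1261 ± 41.2 (0.39), Psmd11 was at 0.20 ± 0.07 (adjusted p = 0.00505) and Psmd8 at 0.18. Against LPS + IL-10, the same libraries gave 20 lower and 5 higher members, with 31.6% of all genes lower and 23.8% higher. Total-count scaling turned the split to 9 lower and 14 higher, and TPM gave 12 and 8. All genes tested then gave 3139 lower and 4961 higher of 14327, and with TPM 3184 and 4348 of 11436. In the main scaling Psma6 was the lowest of the 38 expressed members at -1.37.

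**Figure D4:**
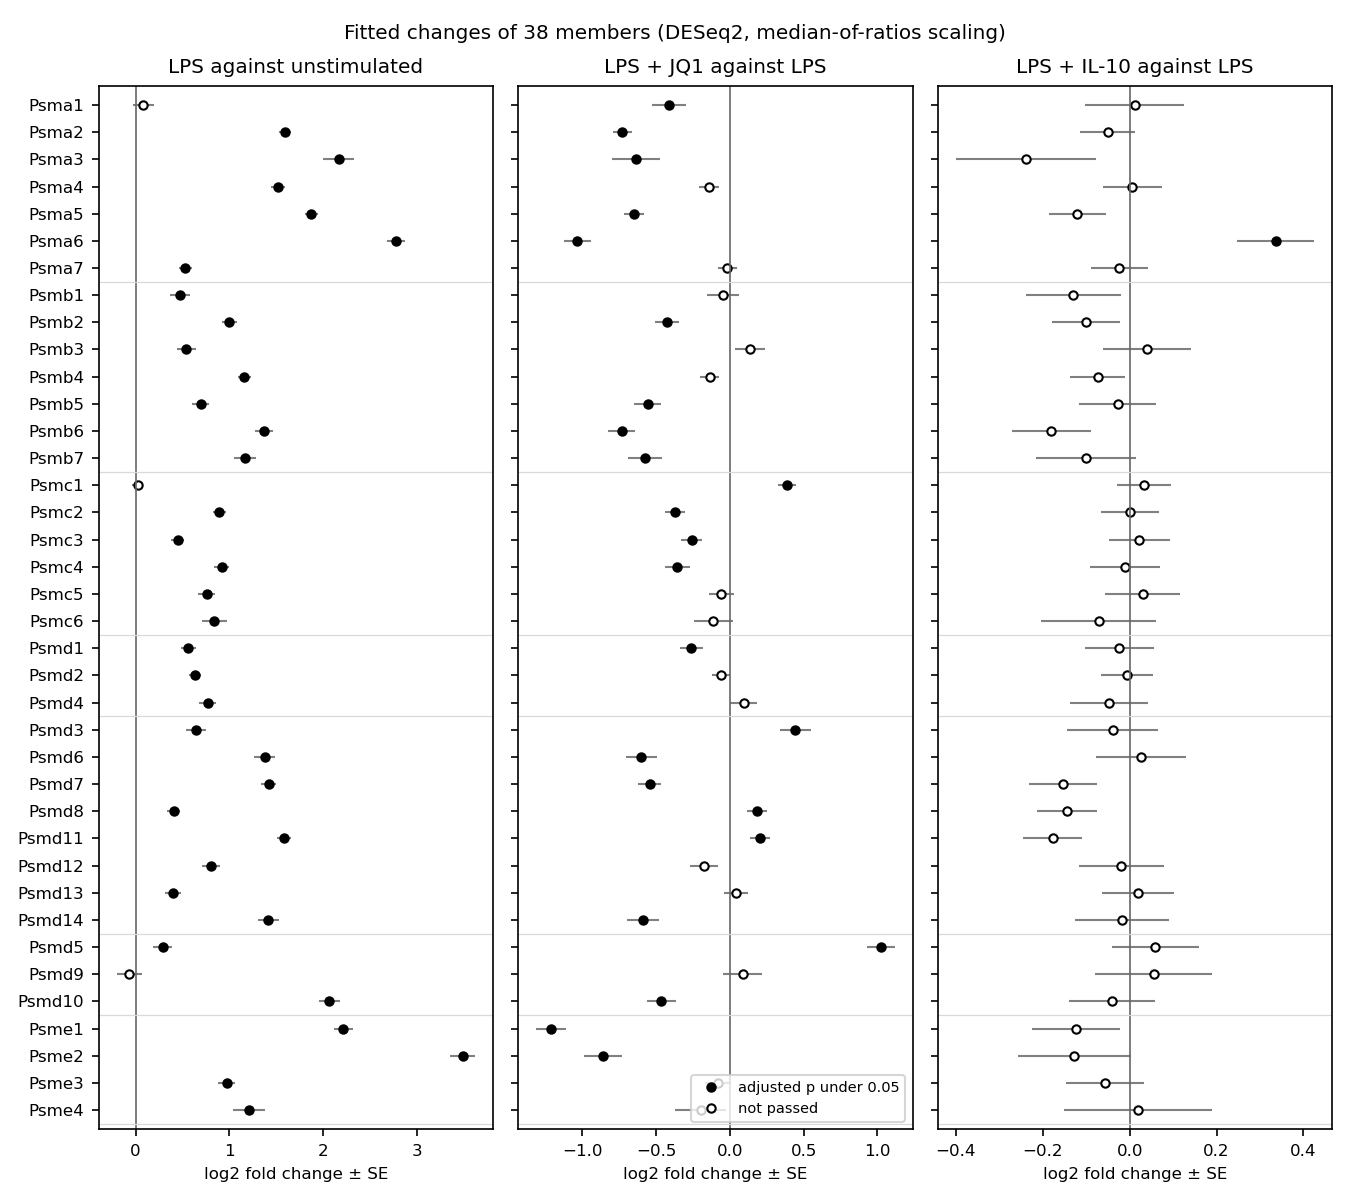
Log2 fold changes ± SE (horizontal axes, different ranges) of 38 members in 3 comparisons, fitted with DESeq2; filled points passed an adjusted p of 0.05 over all genes. LPS moves 35 members to the right, LPS + JQ1 moves 19 left and 5 right of LPS, and LPS + IL-10 moves Psma6 alone. With total-count scaling the first 2 splits become 14 against 14 and 7 lower against 16 higher. All genes tested then give 8847 lower against 2219 higher and 2994 lower against 5524 higher.

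JQ1 alone was compared with no treatment in resting cells. It gave 8 higher and 6 lower members, where 21.3% of all genes tested were higher and 23.1% lower. Total-count scaling gave 3 higher and 14 lower members, where 1655 of 14327 genes tested were higher and 4537 lower. TPM gave 1 and 13 members, where 1445 of 11436 genes tested were higher and 4421 lower. In the main scaling the median log2 fold change was 0.00, as for all genes. Psme1 fell 1.40-fold (-0.49 ± 0.11, adjusted p = 2.13e-05), Psmb5 was at -0.31 ± 0.09 (adjusted p = 0.00264) and Psma6 at -0.30 ± 0.10 (adjusted p = 0.00618), and these, Psmd1 and Psme2 were lower under all 4 scalings. Psme2 was at -0.39 ± 0.14 (adjusted p = 0.0119), and without unstimulated replicate 1 it was at -0.13 and without JQ1 replicate 1 at -0.35, neither called. Psme4 was the highest at 0.50 ± 0.17 (adjusted p = 0.00983), and was 0.44 and uncalled without unstimulated replicate 2 or without JQ1 replicate 1. It was also uncalled with total-count scaling (0.32) and TPM (0.29). Psmd5 was at 0.44 ± 0.10 (adjusted p = 2.52e-05) and lost the call with TPM (0.23). Psmd3 (0.44) was the member that was higher under all 4 scalings. Psma8 was also called lower, but at 0 or 1 count with JQ1 against 17, 2 and 4 it is at the floor in most libraries and the call was lost without unstimulated replicate 1, JQ1 replicate 1 or JQ1 replicate 3. The count of lower members was 3 without unstimulated replicate 1 and 3 without JQ1 replicate 1.

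With JQ1 present throughout, LPS still raised 35 members and lowered 1 (Psma1, -0.33), where 27% of all genes were higher and 30.2% lower, and 23 of these members were higher under all 4 scalings. Without JQ1 replicate 1 no member was lower. Psme2 rose by log2 3.02 ± 0.13 (adjusted p = 1.25e-111), Psma6 by 2.05 and Psmd11 by 1.65. The difference between the LPS effects with and without JQ1 was tested as an interaction, in which 19 members were lower and 1 higher, with 23.1% of all genes lower and 17.2% higher. This split depended on the scaling more than any other: it was 11 lower and 1 higher with TMM factors or with edgeR, 0 lower and 20 higher with total-count scaling, and 0 lower and 18 higher with TPM. Of all genes tested, 5949 of 13687 were higher and 1011 lower with total-count scaling, and 5661 of 11436 and 1176 with TPM. With TMM factors 2873 of 13366 were higher and 2378 lower, and with edgeR 2884 of 12112 and 2422. The members' median minus that of all genes was -0.20, -0.20, -0.21 and -0.14 in the 4 scalings. Psmd5 (0.58 ± 0.14, adjusted p = 9.24e-05) was the member called in 1 direction under all of them.

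**Figure D5:**
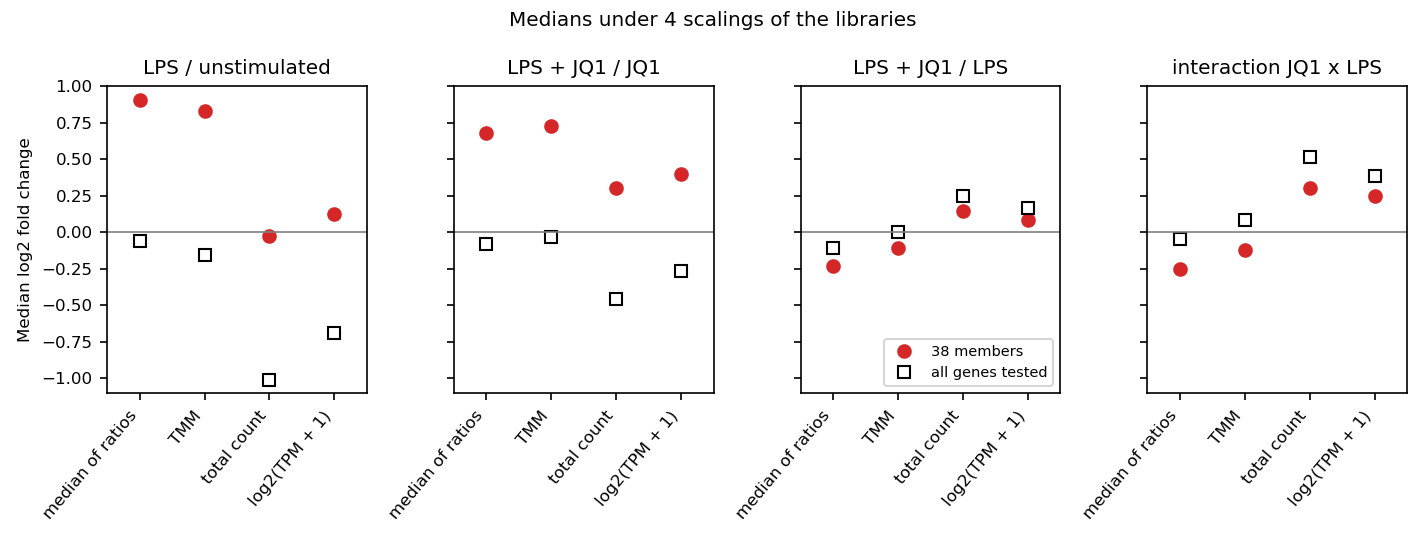
Median log2 fold change of 38 members (filled) and of all genes tested (open) in 4 comparisons under 4 ways of scaling the libraries. With LPS both medians drop under total-count and TPM scaling, to -0.024 and 0.13 for the members, but their distance stays between 0.82 and 0.98; the interaction medians turn from below 0 to above 0.

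IL-10 was compared in the same way, in cells that cannot make it. Without LPS no member passed in either direction (DESeq2), where 2.5% of all genes were higher and 1.47% lower; 2 members had an unadjusted p under 0.05, edgeR gave 0 calls and 2 such members, and limma on TPM gave 0 and 0. Without unstimulated replicate 2, 1 member was lower. The 38 estimates ran from -0.32 (Psme2) to 0.11 (Psmd14), with a median SE of 0.09. With LPS, 1 member was higher and 0 lower, beside 7.67% and 8.02% of all genes. That member was Psma6, at log2 0.34 ± 0.09 (1.26-fold, adjusted p = 0.00178), called under all 4 scalings and between 0.23 and 0.42 when single libraries were left out, but not when the fit held only the libraries of the 2 groups (0.35). The other estimates lay at or above -0.24 (Psma3), and leaving out LPS replicate 3 gave 3 lower members and leaving out LPS + IL-10 replicate 1 or 3 gave 1. Psmd11 was at -0.18 ± 0.07 (adjusted p = 0.0548). Psme1 (-0.12 ± 0.10, adjusted p = 0.514) and Psme2 (-0.13 ± 0.13, adjusted p = 0.638) did not pass, which does not show that their values were alike. The LPS effects with and without IL-10 differed for 1 member in the interaction test, where 3.57% of all genes were higher and 3.03% lower. It was Psma6 (0.40 ± 0.13, adjusted p = 0.0381), uncalled with edgeR (adjusted p = 0.0575), with TPM and without any 1 of 8 of the 12 libraries.

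Other genes of the pathway were followed as lists. Of 12 further subunits, core chaperones and deubiquitinases, LPS raised 7 and lowered 3, beside the 30.8% and 32.2% of all genes given above. With total-count scaling these were 1 and 6, and with TPM 2 and 6. The 3 were Psmg1 and Psmg2, the chaperone pair that starts the alpha ring, at -0.87 and -0.52, and the deubiquitinase Uchl5 at -0.47, named after their values were seen and lower under all 4 scalings. Txnl1, a redox protein bound to the 19S particle, rose by 1.43 and under all scalings. Pomp, which matures the beta ring, rose by 1.02 and was at 0.095 and uncalled with total-count scaling. With LPS + JQ1 against LPS, Psmg1, Psmg2 and Psmg4 rose by 1.11, 0.87 and 0.85, and the list was split 5 to 5, with 6 higher and 1 lower under total-count scaling. Of 14 transcription, processing and shuttle factors, 9 rose and 3 fell with LPS (1 and 10 with total-count scaling, 2 and 8 with TPM). Ddi2, the protease that releases the proteasome regulator Nfe2l1, fell by 3.20 on the log2 scale and rose by 2.11 with LPS + JQ1 against LPS (adjusted p = 2.44e-118), in both cases under all scalings. Nfe2l1 itself, named after its values were seen, rose by 1.07 with LPS, but was at 0.14 and uncalled with total-count scaling. With LPS + JQ1 against LPS it was at 0.065 and uncalled, and it was called higher with total-count scaling (0.44), TPM (0.38) and TMM factors (0.18). Ubqln2, a ubiquitin shuttle, rose there by 1.36. With LPS + IL-10 against LPS, Zfand5, Ddi2 and Nfe2l2 were the 3 of the 14 that rose, by 0.81, 0.70 and 0.46. All 6 ubiquitin and E1 genes passed as higher with LPS, with the E1 gene Uba6 at 2.04 and under all scalings (2 higher and 3 lower of the 6 with total-count scaling). With LPS + JQ1 against LPS 3 of the 6 were lower, and none under every scaling.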

How the data were processed

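RNA-seq was analysed for 18 libraries of Il10-/- macrophages. Per the labels and the study's methods, the authors made stranded, ribosome-depleted libraries sequenced as paired ends, extracted reads with TagDust, aligned them to mm9 with STAR and quantified them with RSEM 1.2.31 at default settings. The deposited expected count of a gene is the estimate that tool gave. The deposited TPM values are scaled by the authors to transcript length and to the library. The FPKM column deposited by the authors was not used. The 9 members whose exons share bases with another gene, among them Psme1, Psmb5 and Psmb7, may hold some of its reads. Psmb5 (with Mir686) and Psmd1 (with Armc9) share bases with a gene on the same strand. For overlaps on opposite strands this depends on strand use in quantification, which was not stated beyond default settings. Between 5.40 and 6.63% of genes per library had fractional counts, 2 members among them (Psme2 and Psmb5).

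Expected counts were rounded and fitted with DESeq2 1.42.0 (R 4.3.3; Wald test, median-of-ratios scaling, 18 libraries, group as the only term) over all genes, with Benjamini-Hochberg adjustment over all genes and a threshold of 0.05, as in the study. Error terms after ± are SE for fitted values. DESeq2 gave 38 to 40 members an adjusted p in each comparison. edgeR 4.0.16 (quasi-likelihood), limma 3.58.1 on log2(TPM + 1), TMM and total-count scaling, a count minimum of 10 in 3 libraries, a lane term, a block for the mouse and leaving out each library were alternatives. On counts simulated for LPS against unstimulated over 24485 genes, 100 genes were changed by log2 0.5 and 100 by 1.0. Of those given an adjusted p, 47.0% and 77.8% were called. Of the unchanged genes given one, 0.18% were called. The changed genes were drawn from expressed genes in general, so these rates are not rates for the members. Genes were raised and lowered in equal number and all others left unchanged. The simulation therefore does not cover the dependence on scaling seen in the data.

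Members, lists and tests were chosen with earlier results of these data known. Values per library are given for Psme1 to Psme4, Psmb5 to Psmb7, Psma8, Psmb11 and the 3 members with the largest called change in each comparison (mean of at least 100 normalised counts), and up to 3 genes are named per pathway list and comparison. Replicate numbers were taken to mark the mouse, which the library titles do not state. Deviations of same-numbered libraries correlated with r from -0.12 to 0.47. Lanes 7 and 8 separate replicates 1 and 3, and for replicate 2 also separate LPS from no LPS. All 18 replicate pairs within groups differed by more than sampling noise, with a chi-square per degree of freedom from 4.14 to 30.5. The pairs with replicate 3 were at 26.1 and 30.5 with LPS and at 30.0 and 28.8 under LPS + IL-10. Replicates 1 and 2 of these groups were at 4.85 and 11.2. The part of replicate 3 in the LPS comparisons was examined only by leaving out single libraries. Counting intervals and floors cover counting error only.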

Additional observations from a re-analysis of the deposited data

Results flagged for a closer look

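The effect of LPS differed between cells with and without JQ1 for 8 members given per library, by the interaction term of the DESeq2 fit. On the log2 scale the difference was -0.73 for Psma3, -0.73 for Psma6, -0.73 for Psmb6, -0.72 for Psme1, -0.70 for Psme4, -0.47 for Psme2 and -0.39 for Psmb7, and 0.58 for Psmd5. Psmb7 lost the call in 8 and Psme2 in 7 of the 12 fits without 1 library, and both with edgeR and with TMM factors. Psme4 lost it without LPS replicate 3 (-0.47), the library that stood above its group. Of the 8, Psmd5 alone was called under total-count and TPM scaling as well. The effect of LPS also differed between cells with and without IL-10 for Psma6, by 0.40 (adjusted p = 0.0381), and this was uncalled in 8 of the 12 fits without 1 library, with edgeR and with TPM.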

How the results depend on the processing

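Total-count scaling and TPM moved the counts of called members, since the median of all genes moved with them. Higher and lower members with total-count scaling, and then with log2(TPM + 1) or log2(TPM + 0.1), were 14 and 14, then 17 and 10, for LPS. For JQ1 they were 3 and 14, then 1 and 13. For LPS + JQ1 against LPS they were 16 and 7, then 12 and 9. For LPS + JQ1 against JQ1 they were 23 and 3, then 25 at pseudocount 1 and 3 at both. All genes tested there gave 2269 higher and 6578 lower of 14327, then at pseudocount 1 2465 and 5611 of 11436. For LPS + JQ1 against LPS + IL-10 they were 14 and 9, then 8 and 12. For the JQ1 interaction they were 20 and 0, then 18 and 0, with 11 lower with TMM factors or edgeR. The counts over all genes for the other comparisons are given above. The median turned to -0.024 for LPS with total counts. It turned to 0.15 and, at pseudocounts 1 and 0.1, 0.084 and 0.086 for LPS + JQ1 against LPS, to 0.30, 0.25 and 0.25 for the JQ1 interaction, to 0.068, 0.080 and 0.081 for LPS + IL-10 against LPS, to 0.053 with total counts for LPS + JQ1 against LPS + IL-10 and to 0.0094 and 0.00964 with TPM for IL-10 alone. Psmb5 with LPS turned to -0.23, -0.087 and -0.088, Psmd5 with LPS to -0.64, -0.46 and -0.48, Psmb7 in the JQ1 interaction to 0.16, 0.092 and 0.094, and Psme2 there to 0.081 with total counts. Fitting only the groups compared gave 0 higher members for LPS + IL-10 against LPS and 0 for the IL-10 interaction, as did edgeR and both TPM settings for the latter. Without single libraries, lower members were 3 to 6 for JQ1, 0 to 1 for IL-10, 0 to 3 for LPS + IL-10 against LPS and 0 to 1 for LPS + JQ1 against JQ1, and higher members 0 to 1 for the IL-10 interaction. The block for the mouse, which pairs libraries by replicate number, changed no call of a named pair of gene and comparison, and of all members Psmb4 alone in LPS + JQ1 against LPS (adjusted p = 0.0437). The cause of these differences was not tested beyond the scaling medians. With 3 mice per group the median SE of a pairwise log2 fold change was 0.09 in the members.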
